A study of Komagataella phaffii GS115 with 3 samples.

Results

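An hmt-deficient strain of the yeast Komagataella phaffii GS115 was set directly against H2O2-treated GS115, gene by gene, in RNA-seq of ribosome-depleted total RNA. K. phaffii, long known as Pichia pastoris, is a methylotrophic yeast used to produce proteins, and GS115 is a laboratory strain of it that cannot make histidine. The hmt-deficient library came from a GS115 derivative labelled as lacking hmt and grown in regular culture, the H2O2-treated library came from GS115 exposed to hydrogen peroxide, and a library of GS115 in regular culture was read beside both. Each group is 1 culture and 1 library, so no difference below has a replicate check, no test was possible, and strain and treatment cannot be told apart as the source of any of them. Nothing in the sources used here gives the dose or length of the treatment, the medium, the kind of hmt lesion or the number of clones. The genes compared were those with at least 10 normalized FPKM in either library, 4975 of the 5040 genes listed.

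Hydrogen peroxide oxidises proteins, lipids and DNA, and yeasts meet it with catalase, peroxidases and the glutathione and thioredoxin systems. In methylotrophic yeasts it is also a product of normal metabolism, because alcohol oxidase makes it inside peroxisomes whenever methanol is burnt. The genes are given here by locus tag. The files and the reference gene table pair no tag with a name or a product, so no tag can be assigned to any of these functions, and 0 of 39 lists of pathways and protein families found a member.

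FPKM counts fragments per kilobase of a gene and corrects for library size, so levels may be set side by side between genes. The deposited normalized values were the FPKM themselves in the H2O2-treated library and FPKM times 1.14 in the hmt-deficient library, which gives both libraries the same sum, 1070995. For untreated GS115 the plain FPKM, summing to 1018729, is quoted. Log2 ratios are of normalized FPKM plus 1, hmt-deficient over H2O2-treated, and understate the difference of low genes. Fold values are ratios of the levels without that addition, with 95% counting intervals from fragments recovered from FPKM. These intervals cover counting error only and leave out any variation between cultures. The libraries were scaled to about 18281698 fragments in the hmt-deficient strain, 22355474 in H2O2-treated GS115 and 15358153 in untreated GS115. A level of 10 FPKM at the median gene length stood for 219, 268 and 184 fragments in the same order, so counting error was small for all but the lowest genes.

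Higher genes were many, while lower genes were few and mostly abundant. In the hmt-deficient library 1488 genes (29.9% of those compared) were higher by 2-fold or more, and 235 genes (4.72%) were lower by as much. Together they made 34.6%, and 86.4% of them were higher. The 1488 higher genes had a median of 79.6 normalized FPKM in the hmt-deficient library and 25.5 in H2O2-treated GS115, with 59.8 FPKM in untreated GS115. Over all genes listed the medians were 78.3, 51.1 and 69.8 in the same order. The higher genes were well under the median of all genes only in the H2O2-treated library. The ratio divides by that level, so picking by the ratio favours such genes, and these medians are a description. For the 235 lower genes the medians were 255 in the hmt-deficient library and 793 in H2O2-treated GS115, with 342 FPKM in untreated GS115. Few as they were, the lower genes held 13.8% of all normalized FPKM in the hmt-deficient library and 42.2% in H2O2-treated GS115. The higher genes held 35.6% and 9.16% in the same order. Picking by the ratio favours such shares as well, so they too are a description.

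The median log2 ratio over all 4975 genes was 0.53, and 73.0% of genes lay above 0. Relative to that median, 698 genes (14.0%) were higher by 2-fold or more and 604 (12.1%) lower, so that 53.6% of those past 2-fold were higher. With the plain FPKM columns, 1143 genes were higher and 323 lower, 78.0% higher. The predominance of higher genes thus depended on which scale was taken as level. At least 4-fold higher were 343 genes against 33 at least 4-fold lower, and at least 16-fold the numbers were 36 and 3. Relative to the median the 4-fold numbers came to 181 higher and 94 lower, and the 16-fold numbers to 18 and 5. In plain FPKM they were 275 and 45 at 4-fold and 29 and 3 at 16-fold. Higher genes outnumbered lower ones at both folds on the 3 scales, by less after centring. The counts at these folds on the other scales were added after the values were seen.

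**Figure D1:**
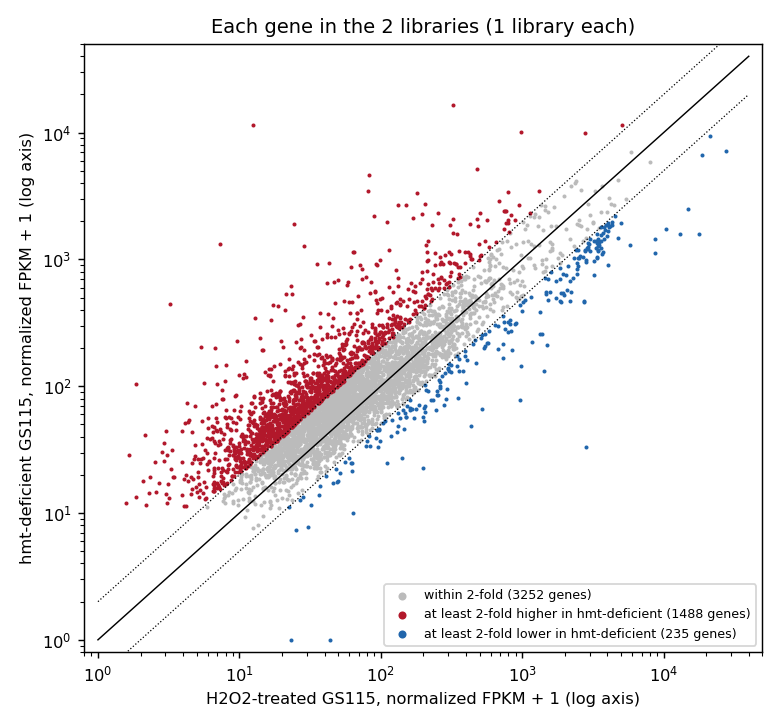
Level of each of the 4975 genes in the hmt-deficient library (vertical) against the H2O2-treated library (horizontal), both in normalized FPKM plus 1 on log axes, with lines of equality (solid) and 2-fold difference (dotted). Of the 1488 higher genes, 1057 lie at 10 to 100 normalized FPKM in the H2O2-treated library and 3 at 1000 to 5000. The 235 lower genes gather at high levels in that library.

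The filter let 259 genes in through the hmt-deficient library alone and 12 through the H2O2-treated library alone. Of these, 234 and 5 were past 2-fold in the direction the filter favours. The other 4704 genes had at least 10 in both libraries, and among them 1254 were higher and 230 lower.

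The widest gap of all was at PAS_chr3_0932. It stood at 11512 normalized FPKM in the hmt-deficient library, against 11.4 in H2O2-treated GS115, a 1005-fold difference (895 to 1134). Ordered by level, it had rank 2 of all genes in the hmt-deficient strain, against rank 4651 in the H2O2-treated library. Untreated GS115 lay between, at 1731 FPKM and rank 101, so both cultures differed from it by more than 2-fold and in opposite directions.

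PAS_chr4_0065 was the most abundant gene of the hmt-deficient library. It reached 16411 normalized FPKM there against 325 in H2O2-treated GS115, 50.5-fold higher (49.3 to 51.6), with 2579.9 FPKM in untreated GS115. Here too the untreated culture lay between the others. Next to it on the chromosome, PAS_chr4_0064 had a log2 ratio of 3.36.

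PAS_FragB_0061, PAS_chr1-1_0356 and PAS_chr1-4_0338 showed the same arrangement, with untreated GS115 in the middle and more than 2-fold from each. PAS_FragB_0061 had 1894 normalized FPKM in the hmt-deficient library against 23.2 in H2O2-treated GS115, 81.7-fold higher (76.4 to 87.5), and 439 FPKM untreated. PAS_chr1-1_0356 had 104 against 0.85, with 33.9 FPKM untreated. Its 122-fold difference rested on 18 fragments in the H2O2-treated library, and its interval was wide, 76.4 to 205. Of the 15 genes with the highest log2 ratios, 5 had the untreated level in this middle position.

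In another 3 of these 15 the hmt-deficient strain was close to untreated GS115, and the H2O2-treated library was the one that stood away. PAS_chr3_0836 had 445 normalized FPKM in the hmt-deficient library against 2.21 in H2O2-treated GS115, 201-fold higher (169 to 241), and 441 FPKM in untreated GS115. PAS_chr1-1_0118 had 3461 against 80.7, 42.9-fold higher (41.1 to 44.7), and 2959 FPKM untreated. PAS_chr4_0783 had 912 against 34.3, 26.6-fold higher (25.2 to 28.0), and 1173 FPKM untreated.

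The hmt-deficient side stood away at 1 of the 15 genes, PAS_chr1-4_0327. Its level was 4599 normalized FPKM in the hmt-deficient library against 81.6 in H2O2-treated GS115, 56.4-fold higher (51.9 to 61.3), while untreated GS115 had 149 FPKM. That is a short gene of 324 bp which ranked 12 by level in the hmt-deficient strain, 1818 in H2O2-treated and 1230 in untreated GS115.

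Both cultures lay below untreated GS115 at PAS_chr3_0440, PAS_chr1-1_0108 and PAS_chr4_0828. PAS_chr3_0440 had 1326 normalized FPKM in the hmt-deficient library against 6.26 in H2O2-treated GS115, 212-fold higher (186 to 242), but 6428 FPKM in untreated GS115, where it ranked 8. The hmt-deficient strain thus had more of this transcript than the H2O2-treated culture but less than untreated GS115. PAS_chr1-1_0108 had 204 against 4.39, with 1288 FPKM untreated, and PAS_chr4_0828 had 341 against 11.8, with 1800.1 FPKM untreated.

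Both cultures lay above untreated GS115 at the last 3 of the 15 genes, all on chromosome 3. PAS_chr3_0002 had 1278 normalized FPKM in the hmt-deficient library against 27.7 in H2O2-treated GS115, 46.1-fold higher (43.4 to 49.0), and 5.61 FPKM untreated. PAS_chr3_0032 had 199 against 5.74, 34.7-fold higher (31.9 to 37.8), with 1.72 FPKM untreated. PAS_chr3_0015 had 439 against 16.2, 27.2-fold higher (25.2 to 29.3), with 1.70 FPKM untreated. PAS_chr3_0002 and PAS_chr3_0015 lie 2 and 12 genes from the same end of chromosome 3, and PAS_chr3_0032 lies 27 genes in.

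**Figure D2:**
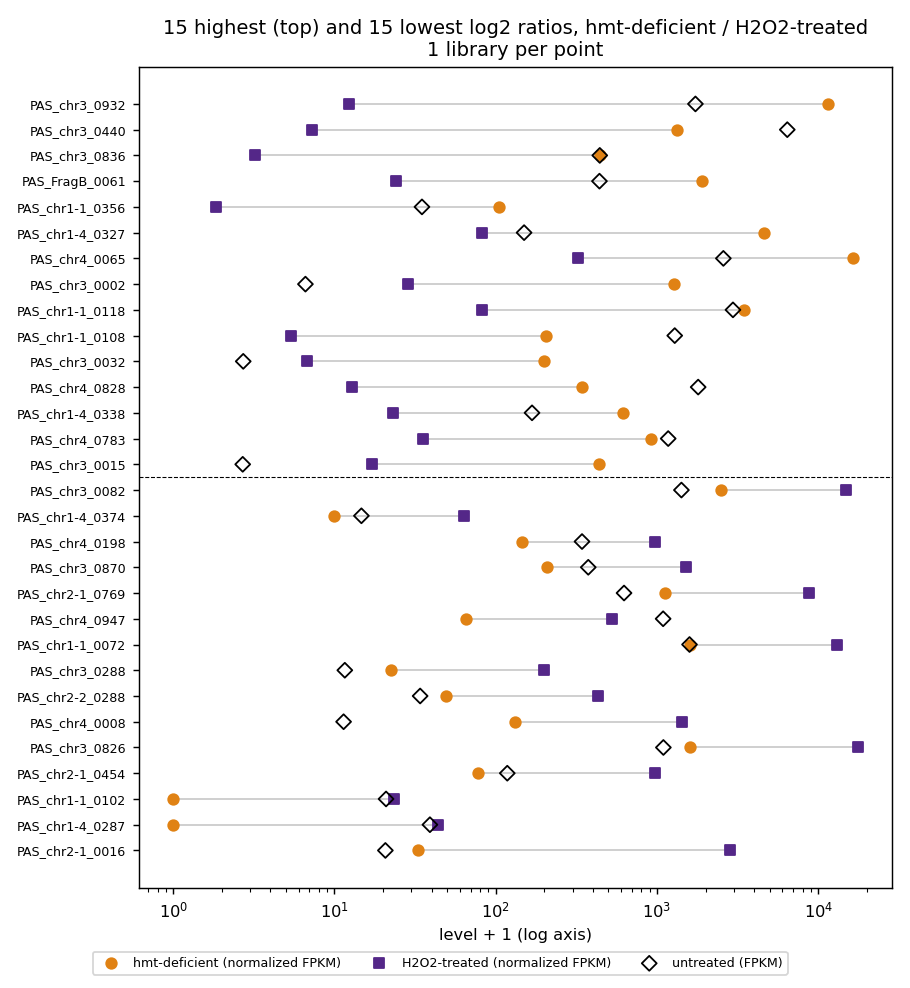
Levels plus 1 (log axis) of the 15 genes with the highest log2 ratios (above the dashed line) and the 15 with the lowest (under it) in the hmt-deficient (orange circles), H2O2-treated (purple squares) and untreated (open diamonds) libraries, 1 library per point. The untreated diamond sits between, beside or outside the others in the upper genes, while in 10 of the 15 lower genes it sits within 2-fold of the orange circle alone.

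Among the 15 lowest log2 ratios, which ran from -6.43 to -2.59, the untreated level went mostly with the hmt-deficient strain. In 10 of the 15 it lay within 2-fold of the hmt-deficient level only. PAS_chr2-1_0016 had 31.9 normalized FPKM in the hmt-deficient library against 2845 in H2O2-treated GS115, 89.2-fold lower (80.3 to 99.3), with 19.7 FPKM untreated. PAS_chr2-1_0454 had 76.5 against 968, 12.6-fold lower (12.0 to 13.3), with 117 FPKM untreated. PAS_chr1-1_0072 had 1593 against 13008, 8.17-fold lower (8.07 to 8.27), and its untreated level was 1591 FPKM. These genes were therefore high in the H2O2-treated culture and near the untreated level in the strain.

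PAS_chr1-4_0287 and PAS_chr1-1_0102 were the reverse case. Both were listed at 0 in the hmt-deficient library, against 42.8 and 22.3 normalized FPKM in H2O2-treated GS115 and 38.1 and 19.9 FPKM in untreated GS115. At the H2O2-treated level, 1483 and 630 fragments would be expected in that library. A floor of 3 fragments per library makes them at least 494-fold and at least 210-fold lower. The 95% counting intervals used for the other genes, which allow slightly more than 3 fragments at a count of 0, start at 402 and 170.4. After them, the lowest gene with 10 or more in both GS115 libraries still had 12.4% of the smaller of its GS115 levels. They lie on chromosome 1, where neither flanking gene of either was 2-fold lower on the normalized scale. PAS_chr1-1_0103, beside PAS_chr1-1_0102, came near, at a log2 ratio of -0.93. It had 175.5 normalized FPKM in the hmt-deficient library against 334 in H2O2-treated GS115, with 16.2 FPKM untreated. Since no label links hmt to a tag, neither of the genes listed at 0 serves as a check of the strain. Reads that match more than 1 gene could not be examined.

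Of the remaining 3 of the 15, PAS_chr4_0008 had 131 normalized FPKM in the hmt-deficient library against 1435 in H2O2-treated GS115 and only 10.4 FPKM untreated, so both cultures lay above untreated GS115. PAS_chr4_0947 had 64.9 against 523, and both lay below its 1091 FPKM in untreated GS115. PAS_chr4_0198 had 144 against 977, with untreated GS115 between them at 342 FPKM.

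Over all genes past 2-fold the untreated level was likewise nearer to the hmt-deficient strain more often than to the H2O2-treated culture. Of the 1488 higher genes, 685 (46.0%) had an untreated level within 2-fold of the hmt-deficient level only, and 271 (18.2%) within 2-fold of the H2O2-treated level only. A further 329 (22.1%) were within 2-fold of both. In 91 genes untreated GS115 lay above both cultures by 2-fold or more, and in 53 below both by as much. In 59 it lay between them and more than 2-fold from each. Genes within 2-fold of a culture were counted as near it, even where the untreated level lay outside both. The 91 had medians of 89.8 normalized FPKM in the hmt-deficient library and 17.9 in H2O2-treated GS115, with 348 FPKM untreated. The 53 had medians of 169 and 38.9, with 8.39 FPKM untreated.

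Of the 235 lower genes, 102 (43.4%) had an untreated level within 2-fold of the hmt-deficient level only and 46 (19.6%) within 2-fold of the H2O2-treated level only. Among the 33 genes at least 4-fold lower, 26 were of the first kind, with medians of 461 normalized FPKM in the hmt-deficient library and 2201 in H2O2-treated GS115 and 514 FPKM untreated. Every position was read from the same single untreated library, whose scale differs slightly from that of the normalized columns. With plain FPKM in all 3 libraries, 563 higher genes lay near the hmt-deficient level only and 165 near the H2O2-treated level only, and for lower genes the numbers were 128 and 77.

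**Figure D3:**
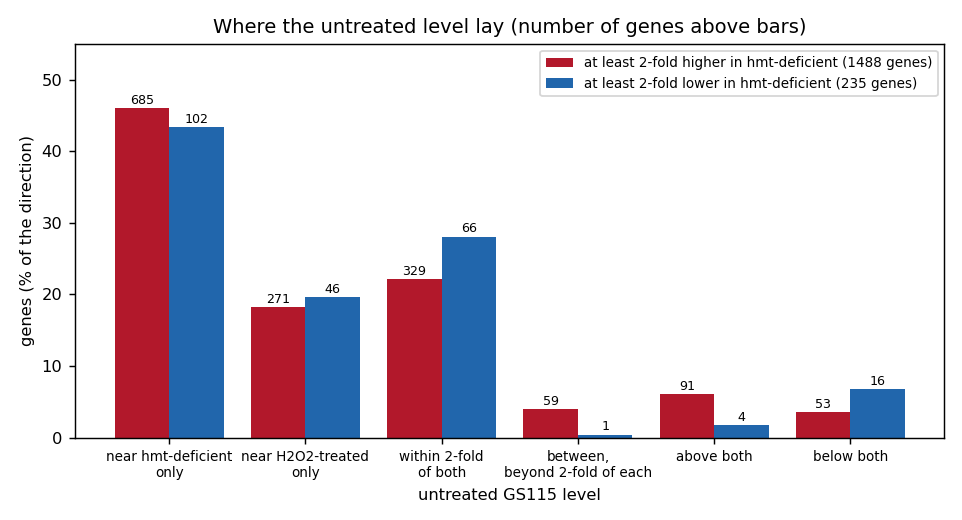
Share of the genes at least 2-fold higher (red, 1488 genes) and lower (blue, 235 genes) in the hmt-deficient library, by where the untreated level lay relative to both cultures, with the number of genes above each bar. In both directions the commonest position is near the hmt-deficient level only, at 46.0% and 43.4%.

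The most abundant transcripts differed in their make-up. The 10 highest genes of the hmt-deficient library took 8.91% of its normalized FPKM, and the 10 highest of the H2O2-treated library took 13.9%. These sets shared 4 genes. PAS_chr2-1_0437, the top gene after H2O2, had 7171 in the hmt-deficient library and 27518 in H2O2-treated GS115, 3.84-fold lower (3.81 to 3.86), with 5330.1 FPKM untreated. PAS_chr1-4_0586 had 9383 in the hmt-deficient library and 21184 in H2O2-treated GS115, 2.26-fold lower (2.24 to 2.28), with 12063 FPKM untreated. PAS_chr2-1_0472 had 6635 against 18736, with 4383 FPKM untreated, and PAS_FragB_0052 had 5869 against 8064, within 2-fold, with 5278 FPKM untreated.

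Of the 10 highest genes after H2O2, 9 were lower by 2-fold or more in the hmt-deficient library, beside 4.72% of all genes. The same 10 held 3.65% of the total in the hmt-deficient library, against 13.9% in the H2O2-treated library, and 3.34% in untreated GS115. Being picked for a high H2O2-treated level, they were more likely to be lower in the other library, so the count is a description. PAS_chr3_0826 was among them, with 1598 normalized FPKM in the hmt-deficient library against 17695 in H2O2-treated GS115, 11.1-fold lower (10.9 to 11.2), and 1095 FPKM untreated. PAS_chr3_0082 had 2481 against 14962, 6.03-fold lower (5.98 to 6.08), with 1417 FPKM untreated. PAS_chr2-1_0769, at 1126 against 8715 and 624 FPKM untreated, was the only one of the 15 lowest that overlaps a neighbouring gene in the reference table, and reads of the pair may not be separable.

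On the hmt-deficient side, 5 of its 10 highest genes were higher by 2-fold or more and 3 were lower. Of all genes compared, 29.9% were higher and 4.72% lower. The 10 were picked for a high hmt-deficient level, which favours higher genes, so the counts are a description. Beside PAS_chr4_0065 and PAS_chr3_0932, the higher ones were PAS_chr4_0407, PAS_chr1-1_0407 and PAS_chr1-4_0570. PAS_chr4_0407 had 10066 in the hmt-deficient library and 976 in H2O2-treated GS115, 10.3-fold higher (10.1 to 10.6), with 3491 FPKM untreated. PAS_chr1-1_0407 had 9926 against 2796, 3.55-fold higher (3.50 to 3.59), with 3911 FPKM untreated. PAS_chr1-4_0570 had 11407 against 5074, 2.25-fold higher (2.24 to 2.26), and only 2408 FPKM untreated. Relative to the median shift its log2 ratio was 0.63, short of 2-fold.

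The ratio was smaller at higher expression. Sorted by untreated level, which the ratio does not use, the lowest of 5 equal bins (median 24.1 FPKM) had a median log2 ratio of 0.79, with 405 of 995 genes higher and 27 lower. Medians of 0.64, 0.55 and 0.37 followed. The highest bin (median 376 FPKM) came to 0.21, and 269 of its genes (27.0%) were higher and 141 (14.2%) lower. Over all genes compared the shares were 29.9% and 4.72%. The highest bin held 141 of the 235 lower genes. It also held 99 of the 343 genes at least 4-fold higher, as many as the lowest bin. Abundant genes thus spread in both directions, while genes of low level lay mostly above 0.

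Lower genes were more frequent at higher H2O2-treated levels. Of 1352 genes with 100 to 1000 normalized FPKM after H2O2, 95 (7.03%) were lower and 193 higher. Of 173 genes with 1000 to 5000, 97 (56.1%) were lower and 3 higher, beside 4.72% and 29.9% of all genes compared. At 5000 or more, 10 of 14 were lower and 1 higher. The ranges were chosen after the values were seen. They use the H2O2-treated level, by which the ratio divides, so the counts are a description. For the 173 genes the median log2 ratio was -1.10, with quartiles at -1.41 and -0.42. Median levels were 1239 in the hmt-deficient library and 2335 in H2O2-treated GS115, with 1251 FPKM in untreated GS115. The median coding length was 640 bp for all 173 genes and 567 bp for the 97 lower ones. With 1000 to 5000 FPKM in untreated GS115 there were 182 genes, of which 72 were lower and 46 higher, with a median log2 ratio of -0.44.

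Coding length went with the ratio as well. The 1488 higher genes had a median length of 1491 bp, the 235 lower genes 771 bp and the genes within 2-fold 1136 bp. In the shortest of 5 bins of 995 genes (median 498 bp) the median log2 ratio was 0.09. There 194 genes (19.5%) were higher and 102 (10.3%) lower. In the longest (median 2634 bp) it was 0.93, with 463 (46.5%) higher and 12 (1.21%) lower. Over all genes compared the shares were 29.9% and 4.72%. Within each of 5 bins of mean level the longest genes exceeded the shortest by 0.55 to 0.80, so the difference was not confined to 1 level. RNA quality values for these libraries were not used here, and the part of RNA integrity or library preparation in this length dependence was not tested.

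**Figure D4:**
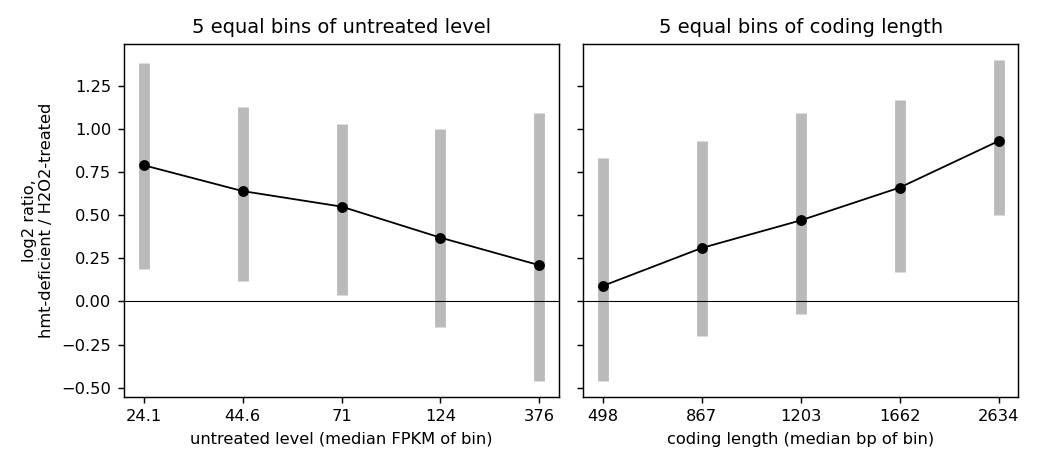
Median log2 ratio, hmt-deficient over H2O2-treated (points), with the quartiles (grey bars), for 5 equal bins of untreated level (left) and of coding length (right), 995 genes each. The median falls to 0.21 in the bin of highest level and climbs to 0.93 in the bin of longest genes.

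The difference was spread over all 4 chromosomes. Between 28.9% and 30.6% of the genes of each chromosome were higher and between 3.80% and 5.08% lower, with median log2 ratios of 0.50 to 0.56. In 197 windows of 25 consecutive genes, 4 had a median under 0 and 6 had a median over 1. The highest window, at 1.46, was on chromosome 4 from PAS_chr4_0320 to PAS_chr4_0344, with 16 genes higher and 3 lower. The first windows of chromosomes 1, 2 and 3, counted in the order of the reference table, were also over 1. So were windows away from the ends. These ran from PAS_chr3_0847 to PAS_chr3_1231, at 1.17, and from PAS_chr1-1_0106 to PAS_chr1-1_0478, at 1.01. The last genes of each chromosome, too few to fill a window, were in none. Among the genes left out were PAS_FragB_0061 on chromosome 1 and PAS_chr2-2_0009 to PAS_chr2-2_0003 on chromosome 2, so the windows do not compare the ends. Of 36 outermost genes compared (up to 5 at each of 8 chromosome ends), 25 were higher and 2 lower. These end genes were of low level, with a median of 27.2 FPKM in untreated GS115 against 71.1 for the other genes. In the lowest bin of untreated level 40.7% of genes were higher, and the part of level in the end count was not tested.

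**Figure D5:**
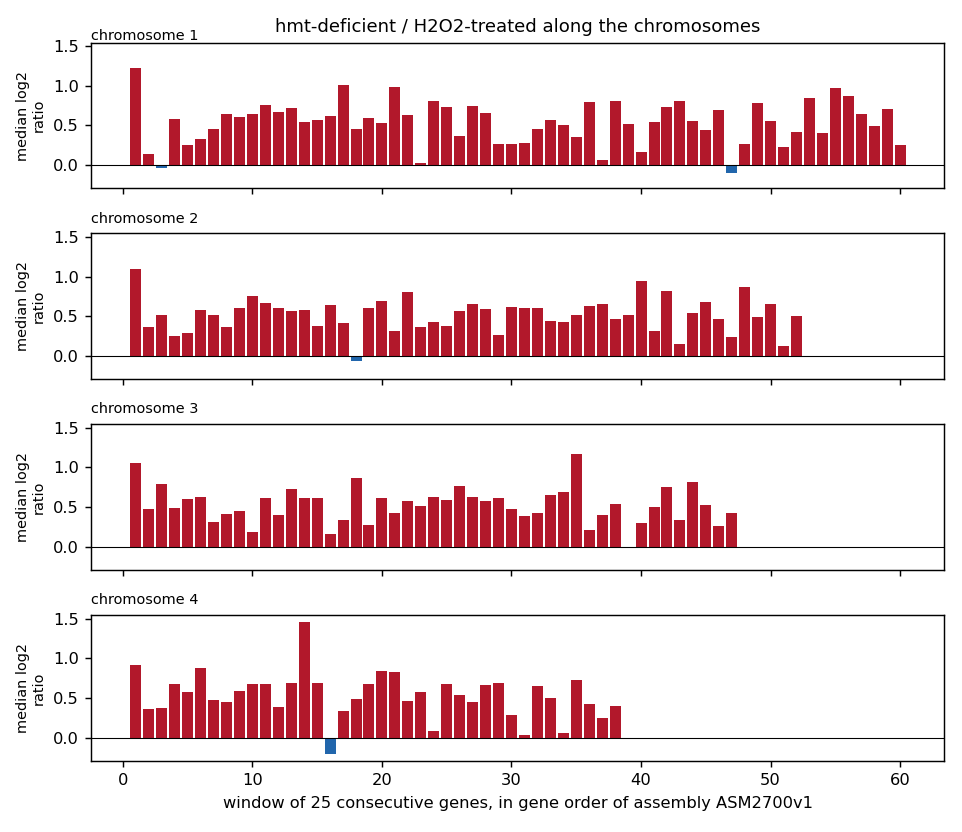
Median log2 ratio, hmt-deficient over H2O2-treated, in 197 windows of 25 consecutive genes along chromosomes 1 to 4, in the gene order of assembly ASM2700v1, with medians at or above 0 in red and under 0 in blue. The highest bar, 1.46, is on chromosome 4, and 4 windows lie under 0. The last genes of each chromosome, too few to fill a window, are not drawn.

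Of the higher genes, 56.5% had a flanking gene that was also at least 2-fold higher, near the 50.4% of all genes compared. The longest unbroken stretch ran over 7 genes from PAS_chr4_0337 to PAS_chr4_0343, within the highest window, and was singled out, like the other stretches, after the values were seen. Relative to the median it shortened to 4 genes, ending at PAS_chr4_0340, and the longest stretches were then of 6 genes. On that scale 27 stretches of 3 or more genes were higher and 15 lower, against 102 and 2 on the normalized scale. The first gene of the stretch, PAS_chr4_0337, had 1867 normalized FPKM in the hmt-deficient library against 309 in H2O2-treated GS115 and 71.5 FPKM untreated. PAS_chr4_0342 had 454 against 46.3, with 175 FPKM untreated. At PAS_chr4_0339 both cultures lay under untreated GS115, with 31.4 against 7.25 and 71.3 FPKM untreated. Adjacent to the stretch lies PAS_chr4_0947, one of the 15 lowest, whose flanking genes had log2 ratios of 1.54 and 2.59.

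A stretch of 5 higher genes ended at PAS_chr3_0836, whose flanking gene on the other side had a log2 ratio of -0.41. PAS_chr3_0834 had 136 normalized FPKM in the hmt-deficient library against 15.3 in H2O2-treated GS115, and 107 FPKM untreated. PAS_chr3_0833 had 115 against 9.57, with 43.3 FPKM untreated, and PAS_chr3_0832 had 122 against 36.1, with 95.6 FPKM untreated. The fifth, PAS_chr3_1225, had 29.0 against 8.38, with 13.7 FPKM untreated. Levels in the hmt-deficient strain were therefore above or near untreated ones throughout, and H2O2-treated levels were the lowest of the 3 in each gene.

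Stretches at the chromosome ends placed untreated GS115 variously. From PAS_chr2-2_0009 to PAS_chr2-2_0003, the last 6 genes at an end of chromosome 2, medians were 49.8 in the hmt-deficient library and 8.90 in H2O2-treated GS115, with 17.3 FPKM untreated. PAS_chr2-2_0003, the outermost, had 24.5 against 1.53 and was listed at 0 in untreated GS115. At an end of chromosome 1, the 6 genes from PAS_chr1-3_0004 to PAS_chr1-3_0013 had medians of 63.9 and 16.4, with 62.8 FPKM untreated. There PAS_chr1-3_0011 had 89.8 against 27.9, far under its 3987 FPKM in untreated GS115. At PAS_chr3_0001 to PAS_chr3_0006, which include PAS_chr3_0002, untreated GS115 was the lowest of the 3 in each of the 4 genes. Their medians were 216 in the hmt-deficient library and 31.5 in H2O2-treated GS115, with 4.62 FPKM untreated.

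Of the 15 genes with the highest log2 ratios, 13 had a flanking gene at least 2-fold higher, beside 50.4% of all genes compared and 56.5% of the higher genes. Of the 15 lowest, 1 had a flanking gene at least 2-fold lower, beside 9.05% of all genes. A flanking gene at least 2-fold higher stood next to 11 of them, and in 4 cases both flanking genes were, against 8.68% of all genes. PAS_chr2-1_0016 had a log2 ratio of -6.43 between neighbours at 4.12 and 2.15. Among the 33 genes at least 4-fold lower the share with a higher flanking gene was 51.5%, near that of all genes, and over all 235 lower genes it was 39.1%. These flank counts were added after the values were seen.

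On the normalized scale, more genes were near-silent in the H2O2-treated library than in the hmt-deficient library. On that scale 73.0% of the genes compared lay above 0 in log2 ratio, and near-silent genes were not counted on the other scales. Genes at 10 or more numbered 4716 in the H2O2-treated, 4963 in the hmt-deficient and 4885 in the untreated library, which lay between. Of 119 genes under 5 FPKM in H2O2-treated GS115, 38 (31.9%) had 20 or more normalized FPKM in the hmt-deficient library. Picking genes by a low level in 1 library favours a higher level in the other, so these counts are a description. Those 38 had medians of 30.3 in the hmt-deficient library and 3.64 in H2O2-treated GS115, with 21.1 FPKM untreated, and 20 of them reached 20 FPKM in untreated GS115 too. In the hmt-deficient library 24 genes were under 5, of which 2 had 20 or more after H2O2, namely PAS_chr1-4_0287 and PAS_chr1-1_0102.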

How the data were processed

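Per the labels' protocols, total RNA was TRIzol-extracted, ribosome-depleted, fragmented and sequenced as stranded paired-end Illumina libraries. HISAT2, HTSeq, featureCounts, Trimmomatic 0.39 and FastQC 0.12.1 are listed, per the submitters' processing notes, without their roles. No source used here gives the genome build, annotation or counting settings. The authors deposited FPKM per gene, per the file headers, and for both compared libraries a normalized FPKM column. The copy of the H2O2-treated FPKM in the untreated table matched for all genes. Tags were looked up in the RefSeq table of ASM2700v1 (all 5040 found) for gene length and order only; its symbols repeat the tags.

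Log2 ratios used a pseudocount of 1 and a minimum of 10 in either library, with Python 3.11.15, pandas 2.3.3 and scipy 1.17.1. Fragment totals were fitted so that FPKM times length gave whole numbers. Within 0.1 of a whole fragment came 96.8% of 1597 genes in the hmt-deficient, 96.2% of 1132 in the H2O2-treated and 96.8% of 3555 in the untreated library. Fragments recovered over all genes came to 102.0% of the fitted total in the hmt-deficient, 103.0% in the H2O2-treated and 99.3% in the untreated library. The totals are therefore approximate. The fit was tested on simulated data. Intervals on ratios are exact (conditional binomial).

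Genes named were the 15 highest and 15 lowest log2 ratios, the 10 highest levels of each library and genes at 0 in 1 library. The next genes outside those 15 had log2 ratios of 4.66 and -2.58. Members, lists and rules were chosen with earlier results of these data known. Other genes were named after their values were seen.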

Additional observations from a re-analysis of the deposited data

How the results depend on the processing

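With 1 library per group no replicate could be left out. No paired analysis was possible because each group holds 1 library. Gene lists had no members, so their alternatives were not run. Centring on the median gave 698 higher and 604 lower genes, which by construction removes the shift. Counting from 4-fold, which takes in fewer genes, gave 343 higher and 33 lower genes, 376 in all. Taking 4-fold both as the difference and as the distance that counts as near gave 152 higher and 19 lower genes near the hmt-deficient level only and 47 and 3 near the H2O2-treated level only. The plain FPKM columns lowered the median log2 ratio to 0.34, and FPKM in all 3 libraries put the untreated level near the H2O2-treated level only in 165 higher and 77 lower genes. At least 4-fold, centring gave 181 higher and 94 lower genes, and at least 16-fold 18 and 5. The other settings (TPM, scaling without the 20 highest genes, pseudocounts of 0.1 and 5, no minimum, minimum 50, minimum 10 in both) kept the counts of higher, lower and all genes past 2-fold within 1.5 times and the median within 0.1; they were not run for the position of the untreated level. Of the 38 named genes past 2-fold, 37 stayed so with plain FPKM and with centring, and 38 under the other scalings and pseudocounts. Pseudocounts moved single genes by up to 3.30 on the log2 scale.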

Other observations

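Ranks within a library do not depend on its scaling. PAS_chr2-1_0016 ranked 4279 by level in the hmt-deficient, 75 in the H2O2-treated and 4659 in the untreated library. PAS_chr3_0836 ranked 480, 4998 and 436 in the same order, and PAS_chr3_0015 ranked 484, 4356 and 5017. The 100 highest genes of the hmt-deficient library took 29.1% of its normalized FPKM, and the 100 highest of the H2O2-treated library took 42.5%. In untreated GS115 the 100 highest took 31.9% of FPKM.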
